A study of Caenorhabditis elegans with 2 samples.

Results

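The 6 genes described here encode subunits of protein complexes of the secretory pathway of Caenorhabditis elegans: sec-61.A, sec-61.B and sec-61.G of the translocon, sec-24.1 of the COPII coat, and sec-3 and sec-15 of the exocyst. They were picked from 19973 protein-coding genes because the 5′ end of each lay within 1000 bp of the summit of a binding region of the tagged nuclear hormone receptor NHR-237. The region lists therefore chose the members, and their signals and ranks are given as a description with no test. Binding was measured by chromatin immunoprecipitation and sequencing (ChIP-seq) against eGFP-nhr-237 in whole L2 larvae. The larvae were of strain OP228, whose genotype is unc-119(ed3) III with the insertion wgIs228, and both sexes were pooled. The labels give their age as unknown. There were 2 biological replicates of this 1 group and no other genotype, so no contrast between conditions exists. In whole larvae, strong binding in a few cells and weak binding in many cannot be told apart.

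Secretory and membrane proteins enter the endoplasmic reticulum (ER) through the Sec61 channel, which is built of an alpha, a beta and a gamma subunit. COPII coats then bud vesicles from the ER at exit sites, and Sec24 is the coat subunit that binds cargo. At the far end of the route the exocyst, a complex of several Sec and Exo proteins, tethers vesicles to the plasma membrane before they fuse. In the worm these steps serve, among others, the secretion of cuticle collagens by the epidermis and of yolk by the intestine.

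The authors deposited 4 lists of regions in the ce11 build, which is assembly WBcel235. Each replicate list held 30000 regions called at a relaxed level. The pooled list, called on both libraries together, held 6542. The list that passed the irreproducible discovery rate (IDR) held 350, and these were ranks 1 to 350 of the pooled list. The signal is read here as the authors' enrichment over a control, as its unit is not given in the sources used. It is on a scale of its own in each list, so lists are compared below by rank, with rank 1 the highest signal. Ratios of the replicate signals are read only against those of the IDR peaks. The depth of the libraries is unknown. With 1 value per region and list there is no SD.

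The sequence around the summits is shown first, because the members are genes chosen for what lies in their promoters. Each line gives the bases within 100 bp of the IDR summit from the WBcel235 genome of RefSeq, read 5′ to 3′ on the strand of the gene, without bases of protein-coding exons. All 6 genes lie on the minus strand. Capitals mark matches on either strand to the GA repeat GAGAGAG, the KLF/SP type word CCGCCC, the GATA factor word TGATAA, the nuclear receptor word AGGTCA, the C/EBP type word TTGCGCAA, and to the further words GAGACGCAG and TTTGCGT described with the motifs.
sec-61.A: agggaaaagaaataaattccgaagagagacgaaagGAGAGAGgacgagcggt
sec-61.B: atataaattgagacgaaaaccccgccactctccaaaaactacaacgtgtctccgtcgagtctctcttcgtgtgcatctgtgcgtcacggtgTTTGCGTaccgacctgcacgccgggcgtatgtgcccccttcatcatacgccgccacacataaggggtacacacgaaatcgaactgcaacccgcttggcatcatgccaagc
sec-61.G: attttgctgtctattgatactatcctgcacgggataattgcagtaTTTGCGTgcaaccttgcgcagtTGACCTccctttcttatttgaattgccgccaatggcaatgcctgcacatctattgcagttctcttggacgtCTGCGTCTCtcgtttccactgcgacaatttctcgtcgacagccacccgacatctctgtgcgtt
sec-24.1: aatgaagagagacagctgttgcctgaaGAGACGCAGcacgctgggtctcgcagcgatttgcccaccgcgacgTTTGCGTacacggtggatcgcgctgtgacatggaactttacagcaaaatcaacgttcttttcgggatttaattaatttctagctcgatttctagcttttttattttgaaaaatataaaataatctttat
sec-3: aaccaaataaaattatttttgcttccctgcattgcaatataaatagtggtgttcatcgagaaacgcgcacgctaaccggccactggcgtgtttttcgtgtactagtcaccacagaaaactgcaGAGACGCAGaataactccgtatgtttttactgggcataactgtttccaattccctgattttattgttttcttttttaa
sec-15: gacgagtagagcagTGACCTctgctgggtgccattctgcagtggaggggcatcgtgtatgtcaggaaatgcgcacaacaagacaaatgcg
The windows are chrIV:14825265-14825316 for sec-61.A, chrIV:2389076-2389276 for sec-61.B, chrV:10897299-10897499 for sec-61.G, chrIV:11566204-11566404 for sec-24.1, chrX:3099914-3100114 for sec-3 and chrX:8835926-8836015 for sec-15. The windows of sec-61.A (52 bases) and sec-15 (90 bases) are shorter because exons were left out.

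All 6 members had a region in every list. This is the outcome of the rule for the IDR and pooled lists. The share of all protein-coding genes with a start within reach of a summit was 1.72% for the IDR list and 15.8% for the pooled list. For the relaxed lists it was 50.3% in replicate 1, 49.3% in replicate 2 and 28.8% in both, so presence in a relaxed list says little about a gene. The ranks set the members apart from one another.

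The translocon genes spanned the whole range of the members' ranks in the pooled list. At sec-61.G, the small gamma subunit also known as EMO-1 (WBGene00001303, V 10896658 to 10897143), the signal was 81.1 in replicate 1, 26.9 in replicate 2 and 105 in the pooled list. These values ranked 34, 111 and 44. This was the highest of the 6 genes in the pooled list and in replicate 1, and it was above 306 of the 350 IDR peaks.

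At sec-61.A, the channel-forming alpha subunit (WBGene00013311, IV 14822540 to 14825264), the signal was 22.4 in replicate 1, 19.4 in replicate 2 and 46.4 in the pool. Its ranks were 766, 290 and 295. At sec-61.B, the beta subunit (WBGene00021427, IV 2388185 to 2388675), the signal was 21.6 in replicate 1, 20.5 in replicate 2 and 44.1 in the pool. The ranks there were 867, 221 and 325. Both genes thus stood higher in the order of replicate 2 than in that of replicate 1, the reverse of sec-61.G.

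The COPII gene sec-24.1 (WBGene00004755, IV 11561986 to 11566194) was the steadiest member. Its signal was 38.5 in replicate 1, 29.1 in replicate 2 and 68.3 in the pool, with ranks of 180, 91 and 121. The larger of its replicate ranks was 1.98 times the smaller, the lowest such ratio among the 6. Together with sec-61.G it was among the 350 highest regions of both replicates, a place held by 2 of the 6 members and by 0.921% of all protein-coding genes.

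The exocyst genes rested mainly on replicate 1. At sec-3 (WBGene00018703, X 3095428 to 3099852), whose yeast counterpart marks the membrane site of tethering, the signal was 26.5 in replicate 1, 9.87 in replicate 2 and 45.7 in the pool. The ranks were 436, 5344 and 305. At sec-15 (WBGene00016188, X 8831737 to 8835715), whose yeast counterpart binds the Rab on the vesicle, the signal was 35.6 in replicate 1, 11.3 in replicate 2 and 44.3 in the pool. The ranks were 215, 3023 and 322. Among the 350 highest regions of each replicate taken alone were 3 members in replicate 1 (sec-61.G, sec-24.1 and sec-15), against 1.65% of all protein-coding genes. In replicate 2 there were 4 (the 3 translocon genes and sec-24.1), against 1.54% of all genes. In replicate 2 both exocyst genes therefore lay far below the other 4 members, whose ranks ran from 91 to 290.

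**Figure D1:**
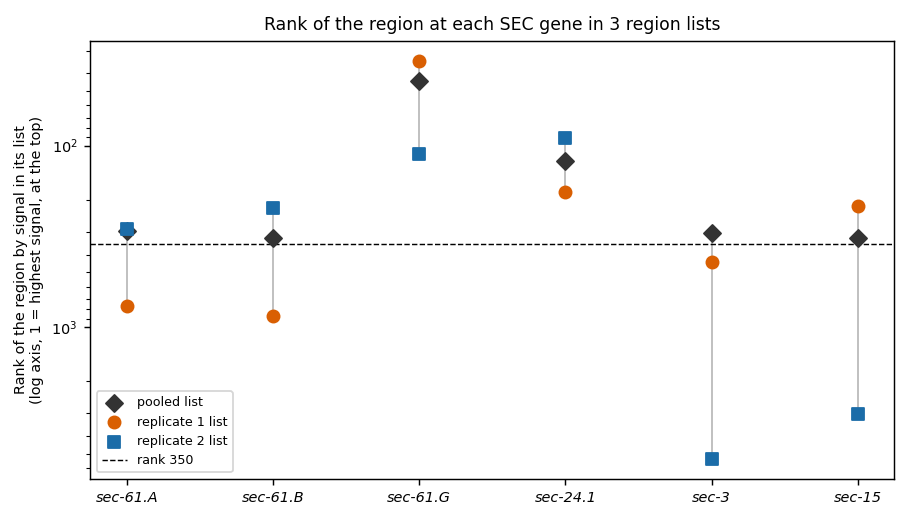
Rank of the region at each of the 6 SEC genes in the pooled list (diamonds), replicate 1 (circles) and replicate 2 (squares), on a log axis with rank 1 at the top and a dashed line at rank 350. In replicate 2 sec-3 (rank 5344) and sec-15 (rank 3023) lie far below the line, while sec-61.G and sec-24.1 lie above it in both replicates.

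The ratio of the replicate signals put sec-61.G with the exocyst genes and the other 3 members apart from them. Replicate 1 over replicate 2 was 3.01 for sec-61.G, 2.68 for sec-3 and 3.13 for sec-15. It was 1.16 for sec-61.A, 1.05 for sec-61.B and 1.32 for sec-24.1. For 342 IDR peaks each replicate list had a summit within 150 bp, and there the median was 1.93 with quartiles of 1.53 and 2.55. Each of the 6 members lay outside these quartiles, 3 above and 3 below. Both exocyst genes are on X. The median was 1.96 over the 71 peaks on X and 1.92 over the 271 on autosomes. Ranks beyond 1000 occurred in 71 of the 342 peaks in replicate 2 (20.8%) and in 8 in replicate 1 (2.34%). Ranks beyond 3000 in replicate 2 occurred in 24 of the 342 peaks, those of sec-3 and sec-15 among them. With unknown depth and 1 value per library these ratios have no error.

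**Figure D2:**
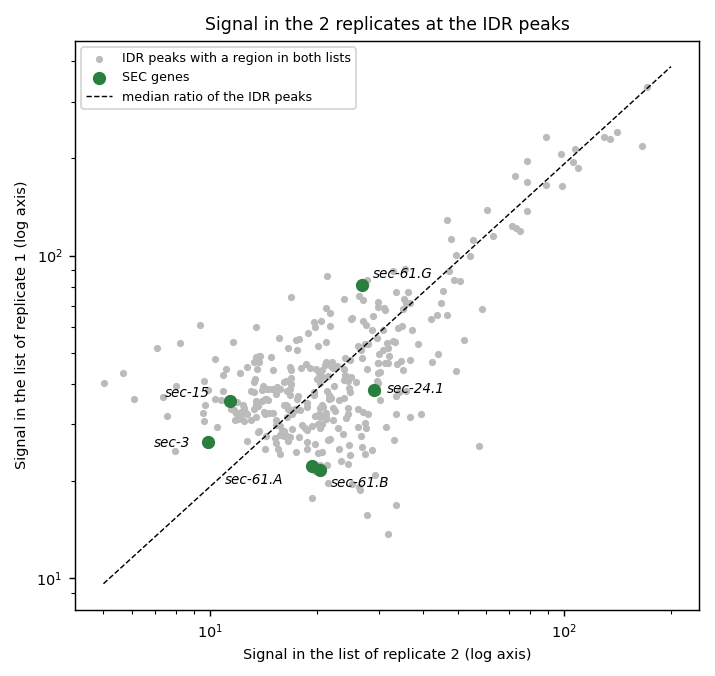
Signal of each IDR peak in replicate 1 (vertical, log axis) against replicate 2 (horizontal, log axis) for the 342 peaks found in each replicate list, with the 6 SEC genes in green and the median ratio of 1.93 as a dashed line. Above the line lie sec-61.G, sec-3 and sec-15, and below it sec-61.A, sec-61.B and sec-24.1.

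The summits of the replicates lay farther apart at the exocyst genes than at the other members. They lay 2 bp apart at sec-61.A, 13 bp at sec-61.B, 26 bp at sec-61.G and 47 bp at sec-24.1. They were 71 bp apart at sec-3 and 103 bp apart at sec-15. Over the 342 peaks the median gap was 33 bp and the upper quartile 68 bp. In replicate 2 the summits of sec-3 and sec-15 were at −89 and −223 bp, nearer the start than the −160 and −326 bp of replicate 1. The replicate 2 summit was the nearer one also at sec-61.A, sec-61.G and sec-24.1, and at sec-61.B it was the farther one.

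Of the 6 members, 4 stood near the foot of the IDR list, at ranks 295 (sec-61.A), 305 (sec-3), 322 (sec-15) and 325 (sec-61.B) of 350. The median signal of the 6 was 46.1, against 58.4 over the IDR list. The last peak inside was the one closest to the start of epc-1, with a signal of 41.93 at rank 350. The first region outside, closest to W05H9.4, had 41.91 at rank 351, so no gap in signal separates the list from what follows. The 4 members lie between 44.1 and 46.4.

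The promoters were of more than 1 kind: sec-61.A, sec-61.B and sec-15 each face a coding gene on the other strand, and sec-24.1 and sec-3 had no other coding start within reach. At sec-61.A the pooled summit lay 48 bp inside the gene, in the 5′ UTR of its longer transcript, and was the 1 member summit downstream of its start. The gene shares a divergent promoter with rps-18, which encodes a protein of the small ribosomal subunit and whose start lay 463 bp from the summit. The starts of the pair are 415 bp apart.

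At sec-61.B the summit lay upstream at −501 bp, and it was closer to the neighbour across the promoter, trap-3, with an offset of −269 bp from that start. TRAP-3 belongs to the translocon-associated protein complex that accompanies the Sec61 channel, so 1 region lay between 2 translocon genes. A pair of noncoding RNA genes, Y38F2AR.16 and Y38F2AR.17, start 79 and 225 bp from the summit. At sec-61.G the summit was at −256 bp in intergenic sequence, and the next coding gene upstream was 1291 bp away. On the other side F32D8.13 follows 114 bp after sec-61.G on the same strand, with its start 856 bp from the summit.

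At sec-24.1 the summit was at −110 bp, inside the noncoding RNA genes F12F6.13 and F12F6.14, and no other coding start was within reach. At sec-3 it was at −162 bp, in the 313 bp between sec-3 and the end of the zinc finger gene ztf-13 on the same strand, again with no other coding start within reach. At sec-15 it was at −311 bp from the start of sec-15 but 10 bp inside C28G1.2, which starts on the other strand. A tRNA gene at X 8836113 to 8836184 starts 87 bp from that summit, and the noncoding RNA genes C28G1.9 and C28G1.8 start 84 and 169 bp from it. Which of these genes a shared region belongs to cannot be told apart from the lists. With only the closest coding start counted for each peak, sec-61.B gave way to trap-3 and sec-15 to C28G1.2, and 4 members were left.

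**Figure D3:**
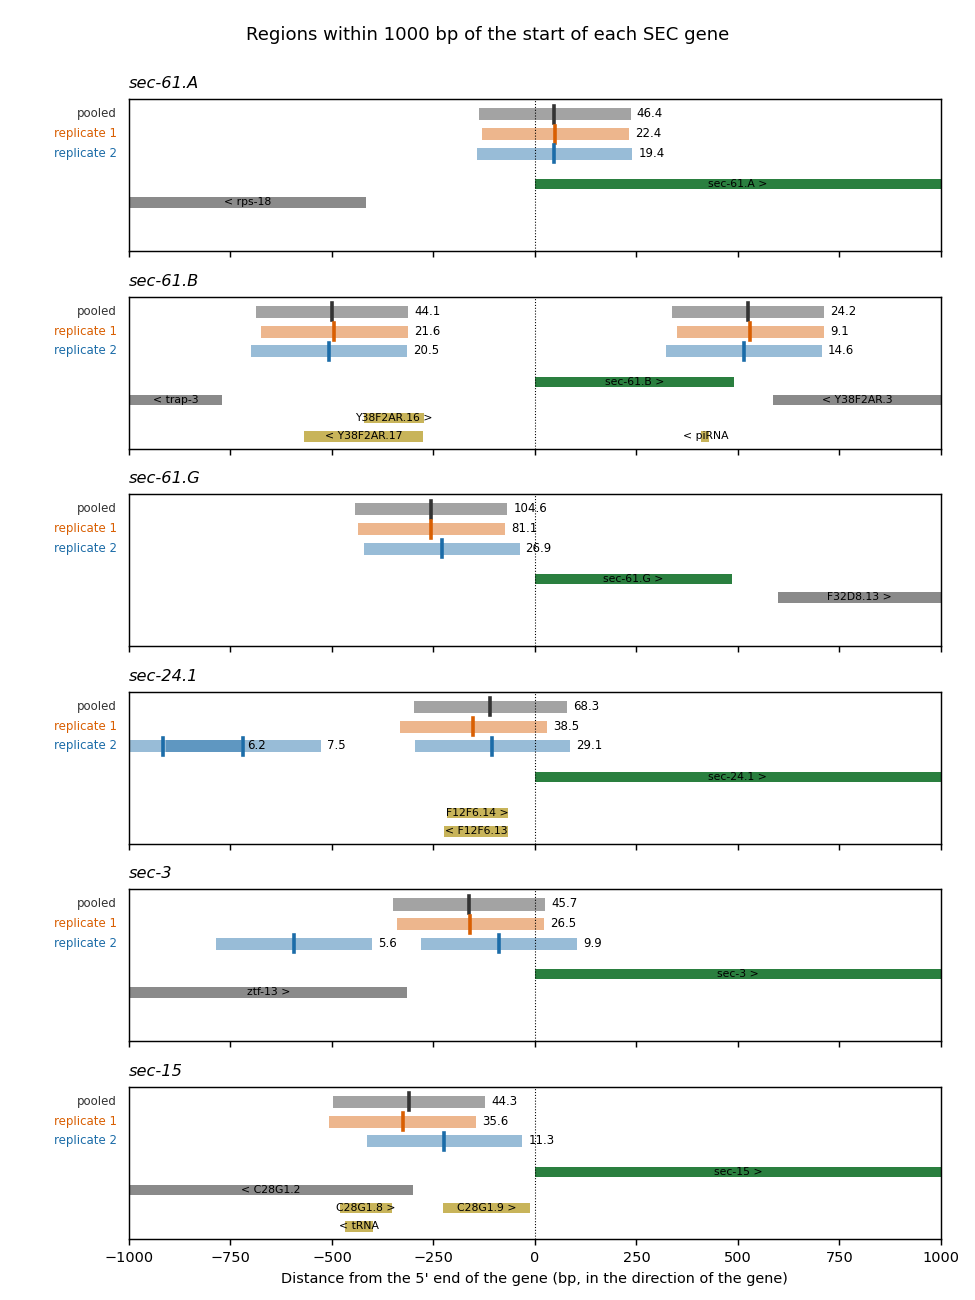
Regions (bars, with the summit as a tick and the signal beside it) of the pooled, replicate 1 and replicate 2 lists with a summit within 1000 bp of the start of each SEC gene, by distance from its 5′ end in bp in the direction of the gene, with the gene in green, other coding genes in grey and noncoding genes in yellow. The summit is 48 bp inside sec-61.A and at offsets from −501 to −110 bp at the other 5 genes.

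The median summit over the 233 IDR peaks near a coding start was at −178 bp from the closest start, with quartiles of −306 and −86 bp. Measured from the closest start in the same way, the peaks of sec-61.G (−256 bp), sec-24.1 (−110 bp), sec-3 (−162 bp) and sec-61.B (−269 bp, from trap-3) lay within the quartiles. The peaks of sec-61.A (48 bp inside the gene) and sec-15 (10 bp inside C28G1.2) lay outside, both downstream of the closest start.

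The sequences printed above were rich in G and C. In the full 201 bp around the summit the GC content was 54.2% for sec-61.B, 48.3% for sec-61.G and for sec-15, 42.3% for sec-61.A, 41.8% for sec-24.1 and 38.8% for sec-3. In windows at the same offset from all protein-coding starts the median ran from 33.3 to 36.8%, and 99.1% of genes had a lower GC content than sec-61.B and 76.8% a lower one than sec-3. The IDR peaks near starts were themselves at a median of 42.3%, with quartiles of 38.3 and 48.3%, so sec-61.B alone lay outside the quartiles of the peaks.

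The motifs were read on both strands as descriptions of letters, not as sites. AGGTCA, the hexamer that many nuclear receptors bind, was present at sec-61.G and sec-15 on the strand opposite to the gene, where it reads TGACCT. Windows of all genes held it in 4.66 to 6.02% at the same offsets, and IDR peaks near starts in 5.15%. GAGAGAG was present at sec-61.A alone, against 2.69 to 5.17% of gene windows and 14.6% of the peaks. None of the 6 windows held CCGCCC, the KLF/SP type word, against 3.19 to 6.01% of gene windows and 11.2% of the peaks. None held TGATAA, the GATA factor word, against 19.01 to 22.9% of gene windows and 7.30% of the peaks. None held the C/EBP type word, against 0.260 to 0.411% of gene windows and 0.858% of the peaks.

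A further pair of words was picked after the 6 sequences had been read, so their counts among the members are no evidence. GAGACGCAG was present at sec-61.G (as its reverse complement), sec-24.1 and sec-3. It was found in 15.5% of the 233 IDR peaks near starts and in 0.826 to 2.35% of gene windows at the same offsets. TTTGCGT was present at sec-61.B, sec-61.G and sec-24.1, in 9.44% of the peaks and in 2.08 to 3.30% of gene windows. The peaks here include the members, and in none of the 6 windows do matches overlap.

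To see the members beside the rest of the pathway, 5 lists were drawn up for entry into the ER, COPII, the exocyst, COPI and vesicle fusion, with 60 genes matched. Of these, 11 had an IDR peak within 1000 bp of the start (18.3%), 6 of them the members, which are on the lists because they were chosen from the peaks. Of the 54 other genes 5 had one, against 1.72% of all protein-coding genes. Genes at a shared peak count more than once, and the lists were chosen with earlier results known.

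The list of ER entry held most of the others. There 7 of 19 genes had an IDR peak, but this count includes members, which were chosen for their IDR peaks. Of the 16 genes that are not members 4 had one, against 1.72% of all protein-coding genes. Among these 4, trap-3 counts only through the peak that chose sec-61.B. The symbols srpa-54, srpa-19, srpa-14, srpa-9, srpr-1 and srpr-2 were tried for this list but found no match, so they are not among the 19. The gene dad-1, for a subunit of the oligosaccharyltransferase that adds sugars to new chains, had a pooled signal of 66.0 (rank 132). Its ranks were 156 in replicate 1 and 146 in replicate 2. For spcs-2 of the signal peptidase the pooled signal was 59.3 (rank 170). The ranks of spcs-2 were 218 in replicate 1 and 2435 in replicate 2, and without replicate 1 it was lost.

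The peak of dnj-29, whose product is the J-domain partner of the channel known as Sec63 in yeast, had a pooled signal of 48.3 (rank 259). Its ranks were 347 in replicate 1 and 228 in replicate 2. The other was trap-3, at the peak of sec-61.B. All 4 stood in a promoter that holds another coding start within reach: tre-1 for dad-1, mrg-1 for spcs-2, ndua-2 and fld-1 for dnj-29, and sec-61.B for trap-3. The summit was nearer the other start at dad-1 (−364 bp, against −75 bp for tre-1) and dnj-29 (−281 bp, against −247 bp for ndua-2). It was nearer the list gene at spcs-2 (−140 bp, against −235 bp for mrg-1) and trap-3 (−269 bp, against −501 bp for sec-61.B). Trailing in the pooled list were spcs-3 (34.3, rank 556), trap-2 (20.8, rank 4145) and spcs-1 (18.8, rank 6484), and 9 genes of the list had no pooled region.

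Within COPII, sec-24.1, chosen for its IDR peak, had the highest pooled signal. The next was sar-1, the GTPase that starts coat assembly, with a pooled signal of 37.2 (rank 458), outside the IDR list. In replicate 1 the signals were close, 38.5 for sec-24.1 (rank 180) and 37.9 for sar-1 (rank 188), and in replicate 2 they were 29.1 (rank 91) and 15.3 (rank 772). After sar-1 in the pooled list came sec-16A.2, for a scaffold of ER exit sites, with 30.2 (rank 851). The paralog sec-24.2 had no pooled region, 1 region of replicate 1 with a signal of 10.4 (rank 15858) and none of replicate 2. The other 6 genes of the list, among them sec-23 and sec-31 of the same coat, had no pooled region either. Of the 9 COPII genes apart from sec-24.1, 2 had one, against 15.8% of all protein-coding genes.

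In the exocyst list, which includes its regulator ral-1, sec-3 and sec-15 were chosen for their IDR peaks. Their gap to the rest in the pooled list therefore follows from the choice. Both lie on X, and the rest lie on autosomes. The genes of the other lists on X (trap-2, sec-16A.2, sec-22, memb-1 and unc-18) had no IDR peak. Of the 7 other exocyst genes 1 had a pooled region, exoc-7 (19.2, rank 5934), against 15.8% of all protein-coding genes. The 6 remaining genes of the list had none. The highest of these in replicate 1 was sec-8, with a signal of 14.5 (rank 5041), and it had 8.99 in replicate 2 (rank 7403). In replicate 2, sec-5 ranked 4872 with a signal of 10.1, ahead of the 9.87 of sec-3 (rank 5344). Among the 350 highest regions of replicate 2 there was none of the 9 genes of the list, against 1.54% of all protein-coding genes. In replicate 1 there was 1, the member sec-15, against 1.65%. These counts are too small to set against those shares.

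In the lists of COPI and vesicle fusion the counts were too small to set against the 1.72% of all protein-coding genes. None of 7 COPI genes had an IDR peak, and the highest, copd-1, had a pooled signal of 24.6 (rank 1923). Of 15 vesicle fusion genes 1 had one, syx-5 for the Golgi SNARE syntaxin, with a pooled signal of 67.0 (rank 128) at a promoter shared with F55A11.1. The summit was nearer the start of F55A11.1 (−199 bp) than that of syx-5 (−320 bp). All 19 genes whose symbol starts with sec- included the 6 members, and of the other 13 there was 1 with a pooled region, sec-16A.2, against 15.8% of all protein-coding genes.

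**Figure D4:**
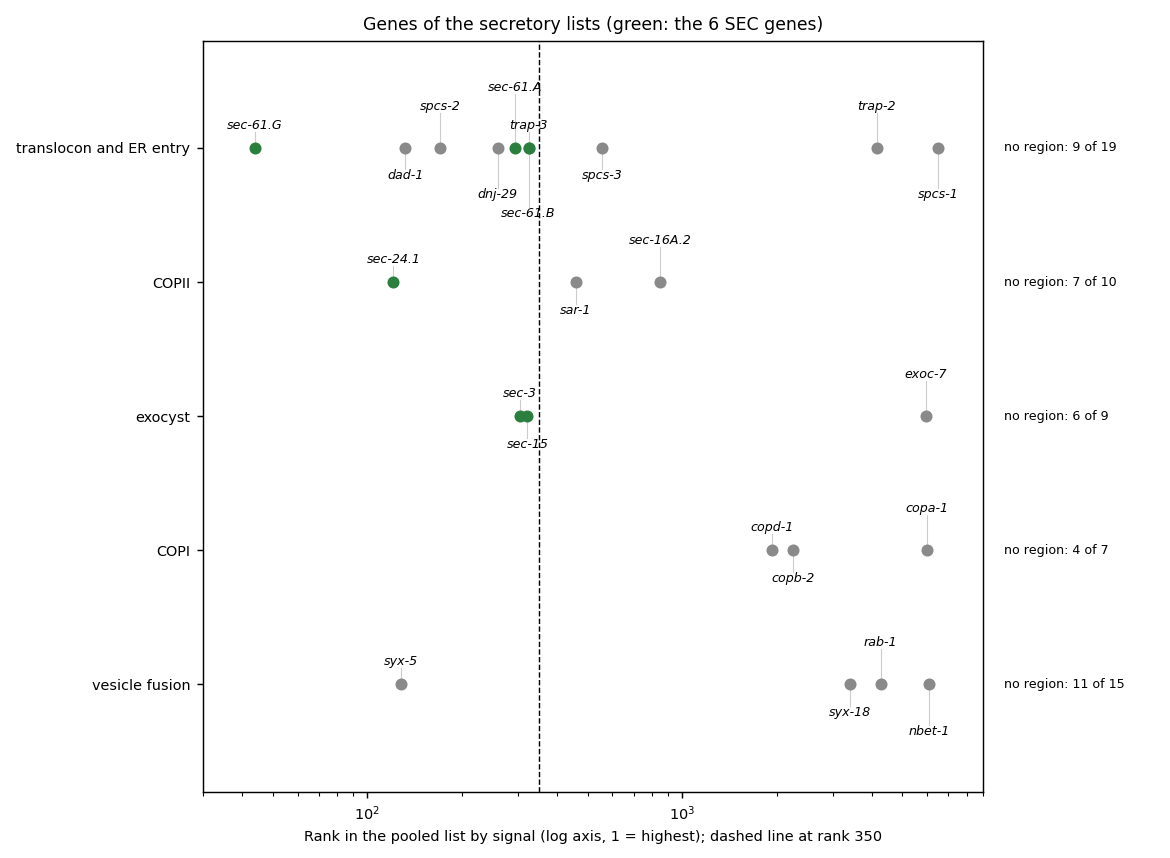
Rank in the pooled list (horizontal, log axis, 1 the highest) of the highest region within 1000 bp of the start of each gene of the 5 secretory lists, with the 6 SEC genes in green, other genes in grey, the IDR limit at rank 350 as a dashed line, and the number of genes without a region at the right. In the ER entry list 7 genes lie left of the line. Of the 16 genes of that list that are not members 4 do, with trap-3 there by the peak of sec-61.B. In the exocyst list only the members sec-3 and sec-15 lie left of the line. The members of all lists were chosen for their IDR peaks.

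The genes outside the lists with the most similar ranks were sought over the pooled list and the 2 replicates, by Euclidean distance of log10 ranks. For sec-61.A the closest was rpl-24.1, a ribosomal protein gene, with ranks of 373 in the pool, 682 in replicate 1 and 283 in replicate 2 (distance 0.114). For sec-61.B it was cox-5B of cytochrome c oxidase, with 381, 860 and 275 (0.117). Both lie just outside the IDR list, unlike the members they resemble.

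For sec-61.G the closest was scpr-1, with 52, 38 and 118 (0.0911), and for sec-24.1 it was the bromodomain gene bet-2, with 112, 159 and 88 (0.0651). For sec-3 it was tag-267, with 407, 401 and 4928 (0.135), and for sec-15 it was C01G10.7, with 272, 244 and 2900 (0.0934). The ranks in each replicate were part of the distance, so a shared difference between replicates follows from the choice.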

How the data were processed

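The authors called regions on each library, and on both together, against a control alignment and kept those past an IDR threshold, per the text files the authors deposited beside the lists. The sources used here do not give the caller, the aligner or the threshold. Values are the signal (column 7) and the summit as deposited by the authors. The labels give the fragment size range as 150 to 350 bp. All region and gene ends lay within the WBcel235 chromosome lengths. Gene starts were the 5′ ends of Ensembl release 115 models, often sites of trans-splicing in this organism, and for the 6 members equal those of RefSeq. A gene took the region with the highest signal within 1000 bp. Of 69 listed symbols 60 genes were matched through Ensembl or RefSeq names; 1 more gene was left out of the lists and is not reported here. The members and lists were chosen with earlier results of these data known. Genes were named if they were members, shared a member's region, were on a list with an IDR peak, bounded the IDR list, or had the most similar ranks; other genes of the lists were named after their values were seen. No test was run. Alternatives were other distances, starts, list sizes and windows, and each replicate alone. The search for starts was tested on simulated data. Python 3.11.15, NumPy 2.4.6, pandas 2.3.3 and matplotlib 3.10.9 were used.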

Additional observations from a re-analysis of the deposited data

How the results depend on the processing

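With the 350 highest regions of 1 replicate in place of the IDR list, 3 to 4 of the 6 members had a region near the start, and 8 of 60 list genes in either case. Without replicate 1 the members lost were sec-3 and sec-15, and without replicate 2 they were sec-3, sec-61.A and sec-61.B. Among the IDR peaks above the median signal of that list 2 members were left (sec-61.G and sec-24.1), with 5 list genes and 177 genes in all in place of 11 and 343. With the closest start only, 6 list genes (4 members, spcs-2 and trap-3) and 228 genes in all were left. Members among the highest regions of both replicates numbered 4 for the 1000 highest, and 1 for as many regions as the upper part of the IDR list, in place of 2. The share of all protein-coding genes at these cuts was not computed. How much of the change follows from the looser or stricter cut is therefore not known. At 500 bp sec-61.B dropped out, and 5 members were left. The other alternatives left the counts of genes within 1.5 times. The counts of single words depended more on the window. With the window set from the gene start, AGGTCA was in 0 windows in place of 2, and TGATAA in 1 in place of 0. TTTGCGT was there in 1 window in place of 3, an alternative chosen for this word after seeing the data. Within 50 bp of the summit GAGAGAG was in 0 windows in place of 1. By rank in a single replicate, sec-3 and sec-15 moved most, as given with their values. No paired analysis was possible because both libraries belong to 1 group. The depth is unknown, so it was not possible to set limits from it.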

Other observations

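A second, weaker region overlapped the 3′ end of sec-61.B, with its summit past that end. Its summit was 524 bp downstream of the start in the pooled list (IV 2387963 to 2388338), with a signal of 24.19 and rank 2073. In replicate 1 it had a signal of 9.15 (rank 22134) and in replicate 2 one of 14.6 (rank 954). The order of the replicates there was the same as at the stronger region upstream, with the higher rank in replicate 2.

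Regions of replicate 2 alone lay upstream of sec-24.1 (offsets −718 and −917 bp, with signals of 7.51 and 6.18) and of sec-3 (offset −594 bp, signal 5.60). They ranked 12788, 20456 and 24792 among 30000 regions, and no region of the pooled list lay there.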
